A study of Mus musculus with 2 samples.

Results

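The miR-181 family of the mouse comprises 6 microRNA (miRNA) genes in 3 clusters of 2 genes each, and its reads were examined here in the left cerebral cortex. The genes were chosen by symbol: Mir181a-1 and Mir181b-1 on chromosome 1, Mir181a-2 and Mir181b-2 on chromosome 2, and Mir181c and Mir181d on chromosome 8. They make up 6 of the 2202 miRNA genes in the count tables, and the rule uses symbols alone, although it was set with earlier results of these data known. All samples came from males of the strain B6CASTF1/J, a first-generation cross of the inbred strains C57BL/6J and CAST/EiJ, aged 2 months and with no treatment named in the labels. There was 1 group of 2 animals with 1 library each, male 03 (library 1) and male 04 (library 2), so the design held no comparison of conditions. The labels call the samples biological replicates 1 and 2, yet both carry one donor identifier. Whether the spread between them is one between animals or technical thus cannot be told apart, and each SD rests on 2 values.

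A miRNA is cut from a hairpin precursor, either arm of which (5p or 3p) can give a mature strand of little more than 20 bases. The strand guides an Argonaute protein to target messages, mainly by pairing of its seed, bases 2 to 8 counted from the 5′ end, and miRNAs with one seed are grouped as a family. The miR-181 family is well known for its part in T-cell development, where it tunes the sensitivity of the T-cell receptor, and it is expressed in brain.

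The mature 5p strands are shown first, because their seed defines the family and because identical strands limit what a count per gene can show. In the RefSeq sequences (GRCm38.p6), the 6 genes encode 4 distinct 5p strands, printed 5′ to 3′ with the seed in capitals.

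miR-181a-5p (Mir181a-1 and Mir181a-2): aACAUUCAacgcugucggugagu
miR-181b-5p (Mir181b-1 and Mir181b-2): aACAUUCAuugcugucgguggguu
miR-181c-5p (Mir181c): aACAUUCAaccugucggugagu
miR-181d-5p (Mir181d): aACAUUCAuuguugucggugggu

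The seed ACAUUCA was identical in all 6 genes, and no other gene among the 1058 with a mature sequence in that table had it. The strands differ behind the seed. With positions counted from the 5′ end, the substitutions from miR-181a-5p to miR-181b-5p were A9U, C10U and A21G over the 23 compared bases. A single substitution, C12U, separated miR-181b-5p from miR-181d-5p over 23 bases. MiR-181c-5p shared the first 10 bases with miR-181a-5p and lay 1 edit (a substitution, insertion or deletion) away from it, and 5 edits from both miR-181b-5p and miR-181d-5p. The family thus falls by sequence into a pair a and c and a pair b and d, and each cluster holds 1 gene of either pair.

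The 3p strands are shown because they are distinct in all 6 genes and so mark the copies whose 5p strands are identical.

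miR-181a-1-3p: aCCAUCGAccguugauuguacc
miR-181a-2-3p: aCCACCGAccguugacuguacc
miR-181b-1-3p: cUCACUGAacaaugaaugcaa
miR-181b-2-3p: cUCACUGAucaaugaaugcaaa
miR-181c-3p: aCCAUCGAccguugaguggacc
miR-181d-3p: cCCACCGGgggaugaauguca

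From miR-181a-1-3p to miR-181a-2-3p the substitutions were U5C and U16C, the first of them inside the seed. From miR-181b-1-3p to miR-181b-2-3p there was A9U, behind the seed, and a difference in length (21 and 22 bases). MiR-181a-1-3p shared its seed with miR-181c-3p.

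Identity between copies extended beyond the annotated strand. The next stretches run from the first base of the 5p strand through the hairpin, with capitals for the 4 bases from the first difference between the copies on.

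Mir181a-1: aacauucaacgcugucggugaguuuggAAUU
Mir181a-2: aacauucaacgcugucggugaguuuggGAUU
Mir181b-1: aacauucauugcugucgguggguuGAAC
Mir181b-2: aacauucauugcugucgguggguuUGAA

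The Mir181a copies parted 4 bases past the end of the 23-base strand, and the Mir181b copies directly at the end of the 24-base strand. With the bases before the strand included, the longest run shared by the hairpins was 28 bases for the Mir181a copies and 26 bases for the Mir181b copies. The libraries were made from RNA under 30 nucleotides. A read lying within such a run fits both copies, and in the layout of the deposited counts a read that maps to several places counts for no gene and goes to a separate tally. In windows of 18 bases, 15.7% of the Mir181a-1 hairpin, 14.3% of Mir181b-1, 18.6% of Mir181a-2 and 12.5% of Mir181b-2 occurred in another RefSeq hairpin, against none of the 55 windows of Mir181d. Between any other members with a hairpin in the table, the longest shared run was 13 bases. The counts at Mir181a-1, Mir181b-1, Mir181a-2 and Mir181b-2 therefore cover only the reads that could be placed. A low count there need not mean a low level of miR-181a or miR-181b.

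Each cluster lies in or opposite a longer gene (mm10, GENCODE M21). Mir181a-1 (ENSMUSG00000065565.1; chromosome 1, 137966455 to 137966541, plus strand) and Mir181b-1 (ENSMUSG00000065458.1; 137966639 to 137966718) are 97 bases apart and overlap an exon of the long non-coding RNA A430106G13Rik on their own strand. Mir181a-2 (ENSMUSG00000065423.1; chromosome 2, 38852735 to 38852810, plus strand) and Mir181b-2 (ENSMUSG00000065578.1; 38853830 to 38853918) are 1019 bases apart and lie opposite an intron of Nr6a1, which encodes an orphan nuclear receptor. Mir181d (ENSMUSG00000076338.1; chromosome 8, 84178716 to 84178787, minus strand) and Mir181c (ENSMUSG00000065483.2; 84178873 to 84178961) are 85 bases apart in an intron of Nanos3, a gene known for its role in germ cells, on the same strand. None of the members had an antisense read in either library, so their counts were equal in the sense column and the column that ignores strand.

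Library 1 held 11372894 reads, of which 3827158 lay on the sense strand of a miRNA gene, and library 2 held 12980686, of which 4553291 did. Levels are given as CPM, reads per 1000000 of these sense-strand reads. A read of small RNA covers a whole mature strand, so counts were not divided by hairpin length. Reads carry no molecular identifiers, so all intervals cover counting error only. Among the miRNA lists for cell types, the neuron list had 10 of 13 genes detected (10 or more reads in both libraries) and summed levels of 78411 and 53206 CPM in libraries 1 and 2. The list for microglia and leukocytes, relevant because the family is also known from lymphocytes, had 4 of 6 detected at 2167 and 1753 CPM. The red blood cell list had 3 of 3 at 133.8 and 1549 CPM, the oligodendrocyte list 3 of 3 at 4981 and 3468 CPM, the astrocyte list (the miR-29 family) 4 of 4 at 14342 and 9860 CPM, and the vessel list 3 of 3 at 14355 and 18574 CPM. No gene of these lists was at 0 in both libraries. Several lists hold copies with an identical mature strand, such as Mir138-1 and Mir138-2 of the neuron list. Reads that fit several copies count for none of them. The sums thus cover placed reads only, and a copy that was not detected need not be absent. Genes of a list did not all go one way. Of the neuron list, Mir132 was at 48515 and 30152 CPM in libraries 1 and 2, most of that list's sums, and Mir138-1 at 4434 and 6046 CPM. Of the red blood cell list, Mir451a was at 58.3 and 1419 CPM and Mir144 at 24.6 and 96.0 CPM. Mir486 of the same list went the other way, at 51.0 and 34.7 CPM, so the rise of that sum was mostly that of Mir451a. The part these shifts have in the members' differences below was not tested.

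Reads placed at the 6 genes of the family numbered 19682 in library 1 and 25650 in library 2. These were 0.514% of the sense-strand miRNA reads (95% Wilson interval 0.507 to 0.522%) and 0.563% (0.557 to 0.570%), with a mean of 0.539% ± 0.0347 (SD, n = 2). Reads that map to several places, of this family or of other genes, are left out of both the family's reads and the total. The intervals do not cover this loss. All 6 members were detected. Their median level was 928 CPM, beside a median of 95.6 CPM over all 406 detected miRNA genes.

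The genes Mir181d, Mir181b-2 and Mir181c, from the clusters on chromosomes 8 and 2, carried most of the family's placed reads. Mir181d had 6000 reads (1568 CPM) in library 1 and 8938 (1963 CPM) in library 2, with a mean of 1765 ± 279 CPM (SD, n = 2). Mir181b-2 had 6019 reads (1573 CPM) and 8648 (1899 CPM), with a mean of 1736 ± 231 CPM. Mir181c had 6100 reads (1594 CPM) and 5996 (1317 CPM), with a mean of 1455 ± 196 CPM. In library 1 these levels lay between 1568 and 1594 CPM and took ranks 74 to 76 among all miRNA genes. In library 2 Mir181d ranked 61, Mir181b-2 63 and Mir181c 78. The ranges of the 3 genes over the libraries overlapped, so their order does not hold beyond the spread.

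Below them stood Mir181a-1, with 1439 reads (376 CPM) in library 1 and 1939 (425.8 CPM) in library 2, a mean of 400.9 ± 35.2 CPM (SD, n = 2). Its range did not overlap with that of any other member. The lowest were Mir181b-1, with 61 reads (15.9 CPM) and 82 (18.01 CPM), and Mir181a-2, with 63 (16.5 CPM) and 47 (10.3 CPM). Their means were 17.0 ± 1.46 and 13.4 ± 4.34 CPM, and their ranges overlapped. Divided by hairpin length, the order of the 6 means stayed the same, from 2452 CPM per 100 bases for Mir181d to 17.6 for Mir181a-2.

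**Figure D1:**
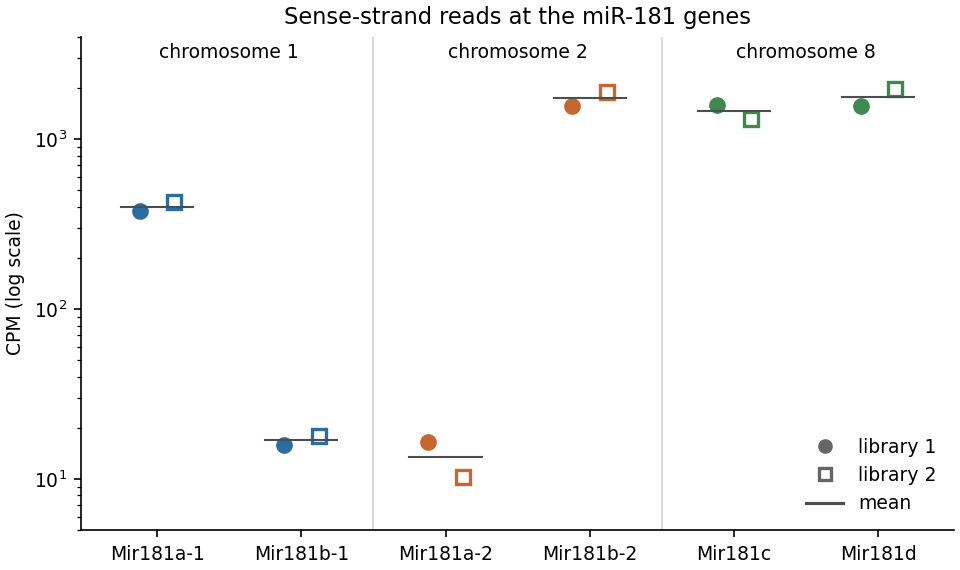
Level of each miR-181 gene in CPM on a log axis, by cluster; filled circles are library 1, open squares library 2 and lines the mean of both. Mir181d, Mir181b-2 and Mir181c lie between 1317 and 1963 CPM, Mir181a-1 near 400.9, and Mir181b-1 and Mir181a-2 under 20 CPM.

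The clusters shared the placed reads unequally. Reads that fit both copies of miR-181a or miR-181b are missing from these shares. The mature strands of the chromosome 8 genes occur at no other gene of the table. These genes held 61.5% of the family's placed reads in library 1 (95% Wilson interval 60.8 to 62.2%) and 58.2% in library 2 (57.6 to 58.8%). The chromosome 2 cluster held 30.9% and 33.9%, and the chromosome 1 cluster 7.62% and 7.88%. The placed reads of the chromosome 1 cluster came mainly from its a gene and those of the chromosome 2 cluster mainly from its b gene.

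That contrast was wide between copies with an identical 5p strand. In placed reads, Mir181b-2 exceeded Mir181b-1 by 98.7-fold in library 1 and 105.5-fold in library 2. Mir181a-1 exceeded Mir181a-2 by 22.8-fold and 41.3-fold. Reads that lie within the shared 5p strand fit both copies and count for neither. These folds therefore do not compare the copies' output of that strand. The high copy lay on chromosome 2 for miR-181b and on chromosome 1 for miR-181a. Over the table, 28 pairs of genes shared a mature sequence and had 10 or more reads at 1 copy or more. Of these, 3 had the lower copy at 0. In the other 25 the median fold between the copies was 4.30, and some genes enter more than 1 pair. The Mir181b copies ranked 2 among the 25 folds, in falling order, and the Mir181a copies ranked 4. The hairpin runs shared by the pairs ranged from 22 to 43 bases over the 27 pairs with both hairpins, with a median of 25. Arms were not separated in the counts, so whether a copy's reads came from the 5p or the 3p strand was not tested.

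**Figure D2:**
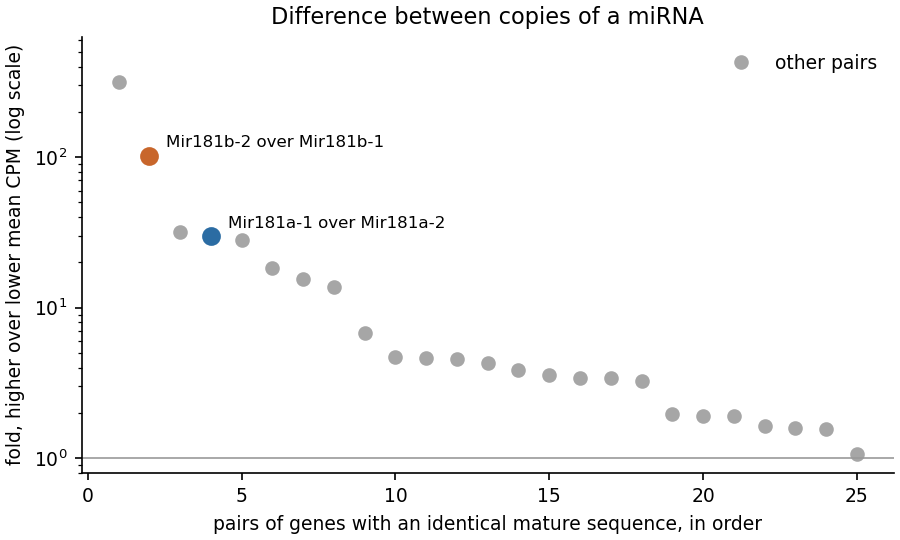
Fold between the copies of a miRNA, higher over lower mean CPM on a log axis, for 25 pairs of genes with an identical mature sequence in order of fold; coloured points are the miR-181 copies. Mir181b-2 over Mir181b-1 (102.3-fold on the means) ranks 2 and Mir181a-1 over Mir181a-2 (29.9-fold) ranks 4, both above the median of 4.30. All folds are of placed reads.

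The share of a family's reads at numbered copies, rather than single loci, was set beside that in the let-7, miR-29 and miR-30 families, which were picked by name, and in the miR-135 family, which was added after its values were seen. The 4 copies had 38.5% of the placed miR-181 reads in library 1 and 41.8% in library 2. In the let-7 family the 6 copies had 1.93% and 1.82%, in the miR-29 family the 2 copies 1.31% and 1.37%, and in the miR-30 family the 2 copies 3.15% and 4.32%. In the miR-135 family the 2 copies had 48.5% and 43.3%, so a high share at copies was not particular to miR-181. The whole miR-135 family was far lower, though, at 0.00857% and 0.0162% of the sense-strand miRNA reads in libraries 1 and 2. In the first 4 of these families the highest copies were Mir181b-2 at 1736 CPM, Mirlet7f-2 at 3186 ± 109 CPM (SD, n = 2), Mir30c-2 at 411 ± 108 CPM and Mir29b-2 at 99.3 ± 8.12 CPM. The highest single loci differed more, from Mir181d at 1765 CPM to Mir30d at 8360 ± 237 CPM, Mir29a at 10625 ± 2718 CPM and Mirlet7g at 103234 ± 17603 CPM. All these values cover placed reads only. A read that fits several copies counts for none of them, and how far this lowers each family's share at copies was not tested. Differences between families were not tested, and other families were not examined.

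The ratios of the members between the libraries ranged from 1.13-fold to 1.59-fold, in both directions. By a two-sided exact binomial test, which compares these libraries with counting error alone, 5 of 6 members differed at an adjusted p under 0.05 (Benjamini-Hochberg over 508 genes), beside 48.4% of all genes tested. Of these, 3 were higher in library 2 (background 23.2%) and 2 in library 1 (25.2%). The median difference of the members was 1.21-fold, against 1.28-fold over all detected genes. With counting error alone, a difference of a given size is called more readily at more reads. The background was not matched for reads, and the members' median level was 928 CPM, beside 95.6 CPM over all detected genes.

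Mir181d was 1.25-fold higher in library 2 (log2 of library 1 over library 2: -0.32, with a 95% exact interval from -0.37 to -0.28, adjusted p = 5.62e-41). Mir181b-2 was 1.21-fold higher in library 2 (-0.27, -0.32 to -0.22, adjusted p = 8.63e-29). Mir181a-1 was 1.13-fold higher there (-0.18, -0.28 to -0.08, adjusted p = 0.000904). These 3 genes lie in 3 different clusters.

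Mir181c went the other way and was 1.21-fold higher in library 1 (log2 ratio 0.28, 0.22 to 0.33, exact binomial adjusted p = 5.69e-25). Mir181a-2 was 1.59-fold higher in library 1 (0.67, 0.11 to 1.25, adjusted p = 0.0346), a call that ended with DESeq2's size factors (0.63, adjusted p = 0.0549) or with all reads as the denominator (0.61, adjusted p = 0.0552). Mir181b-1 had a log2 ratio of -0.18 (-0.68 to 0.32, adjusted p = 0.615). The sizes of these ratios stood between percentile 26.6 (Mir181b-1) and percentile 77.6 (Mir181a-2) of the absolute log2 ratios of the 406 detected genes.

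When the spread between samples was allowed for, with a common dispersion that edgeR estimated from the same libraries (coefficient of variation 33.3%), none of the 6 members passed edgeR's exact test. The background was 0.787%, or 4 of 508 genes. No member had an unadjusted p under 0.05, and 25 of the 508 genes had. Since the dispersion comes from the difference between these same libraries, this only places the members among the other genes and is no replicated test.

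**Figure D3:**
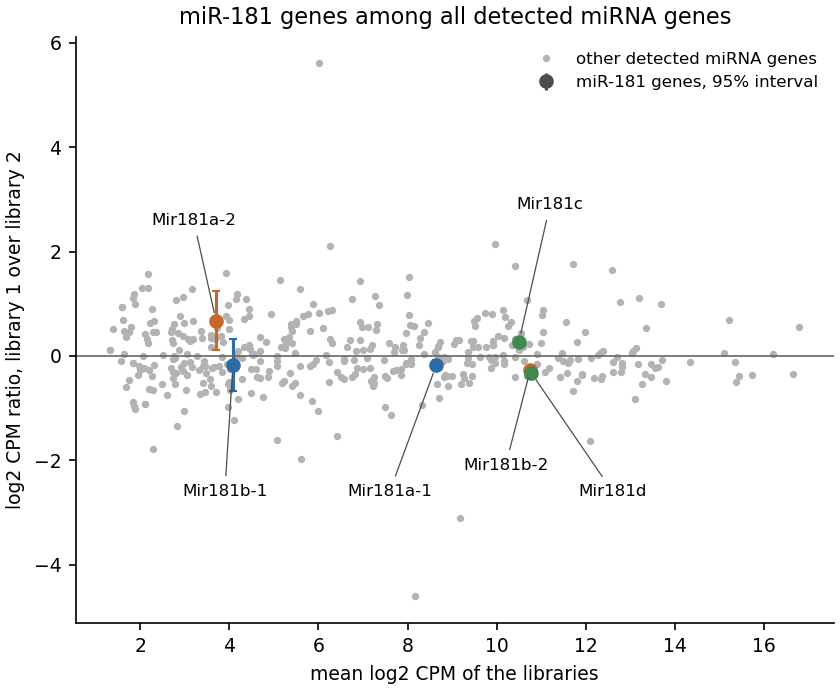
Log2 CPM ratio of library 1 over library 2 against the mean log2 CPM, for 406 detected miRNA genes (grey) with the 6 miR-181 genes coloured by cluster and bars for their 95% exact intervals. The members lie between -0.32 (Mir181d) and 0.67 (Mir181a-2), inside the spread of the other genes.

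Genes of a cluster can be cut from a shared transcript, and the ratio of their reads was followed between the libraries. On chromosome 1, Mir181a-1 exceeded Mir181b-1 by 23.59-fold in library 1 and by 23.65-fold in library 2, with 95% exact intervals of 18.3 to 31.0 and 18.95 to 29.9. The measured ratios were thus nearly equal (Fisher's exact test, adjusted p = 1.0 over 95 pairs of neighbouring miRNA genes). They rest on the 61 and 82 reads of Mir181b-1, and the wide intervals do not exclude a change. On chromosome 2, Mir181b-2 exceeded Mir181a-2 by 95.5-fold (74.6 to 124.5) and by 184.0-fold (138.2 to 250.6), a change of 1.93-fold (Fisher's exact test, adjusted p = 0.00141). It rests on the 63 and 47 reads of Mir181a-2.

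On chromosome 8 the neighbours had similar reads in library 1, and more lay at Mir181d in library 2. The ratio of Mir181d over Mir181c was 0.984 in library 1 and 1.49 in library 2, with 95% exact intervals of 0.949 to 1.02 and 1.44 to 1.54. The ratio changed 1.52-fold (Fisher's exact test, adjusted p = 5.39e-63). In library 1 the interval held equality, and in library 2 it did not. Neither gene shares a mature strand with another gene of the table.

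In all, the ratio differed for 2 of the 3 miR-181 pairs, beside 73.7% of the 95 neighbouring pairs tested (same strand, at most 10 kb apart), and counting error alone was allowed for. The median change of the ratio over the 95 pairs was 1.48-fold. The changes of 1.52-fold on chromosome 8 and 1.93-fold on chromosome 2 stood at percentiles 53.7 and 77.9, and that of chromosome 1 at percentile 1.05. The fold between neighbours, averaged over the libraries on the log2 scale, was 133 on chromosome 2 (percentile 95.8), 23.6 on chromosome 1 (percentile 75.8) and 1.21 on chromosome 8 (percentile 4.21), against a median of 10.6. The genes on chromosomes 1 and 2 lose reads that fit both copies, while the mature strands on chromosome 8 occur at no other gene. These folds thus do not compare like counts between the clusters.

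**Figure D4:**
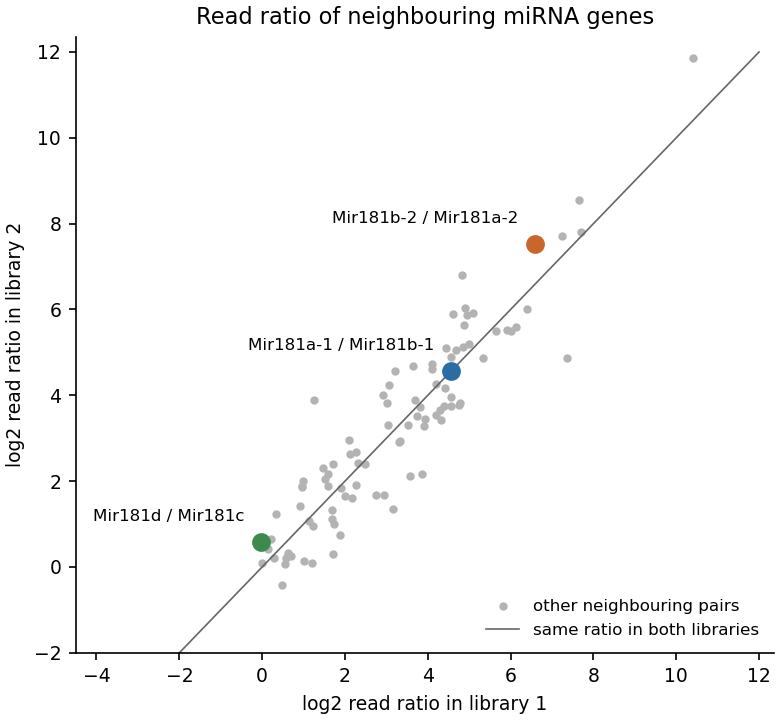
Log2 ratio of the reads of 2 neighbouring miRNA genes in library 1 (x axis) and library 2 (y axis) for 95 pairs, each as the higher over the lower gene, with the miR-181 pairs coloured; the line marks equal ratios. Mir181a-1 over Mir181b-1 lies on the line at 4.56, while Mir181b-2 over Mir181a-2 (6.58 and 7.52) and Mir181d over Mir181c (-0.02 and 0.58) lie above it.

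The genes most like Mir181d, the highest member, were sought over the 2 libraries by the distance of log2(CPM + 1) in both. Mir181b-2 was nearest, at a distance of 0.048, although it lies on another chromosome. Mir760 followed at 0.14, with 1441 CPM in library 1 and 1874 CPM in library 2. Mir708 came next at 0.22, with 1820 and 2021 CPM. The cluster partner Mir181c was not among the 3 nearest genes. With 2 values a gene, the distance shows a similar level of placed reads only. Mir181b-2 loses reads that fit both copies, while the mature strands of Mir181d occur at no other gene, so their counts are not alike.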

How the data were processed

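MiRNAs were sequenced from RNA under 30 nucleotides in 2 libraries of 1 group. The authors deposited 1 table of raw read counts per miRNA gene and library (unstranded, sense and antisense columns), on mm10 with GENCODE M21 per the deposited descriptions. The tallies of unmapped, multi-mapped, unassigned and ambiguous reads were kept apart. The layout is that of STAR's gene counts; the sources used here give neither the aligner and its version nor the trimming. From the sense column, CPM, exact binomial tests over the 508 genes with 10 or more reads in total, and Fisher's exact tests over 95 neighbouring pairs were computed (Benjamini-Hochberg, threshold 0.05). Tools were Python 3.11.15, scipy 1.17.1, edgeR 4.0.16 (TMM, common dispersion) and DESeq2 1.42.0 (size factors) in R 4.3.3. Tests were tried on simulated counts. Of the table's 2202 genes, 1018 matched a RefSeq mature sequence by symbol; no hairpin of Mir181c was used. Named genes are the 6 members, the 3 genes nearest to the highest member, and, for the comparison of families, the highest copy and the highest single locus of the let-7, miR-29 and miR-30 families. Mir132 and Mir138-1 of the neuron list and Mir451a, Mir144 and Mir486 of the red blood cell list are named in addition, as genes of lists with opposite directions. Mir138-2 is named as a copy of Mir138-1. Alternatives were other columns, scalings, denominators, minimums and gaps, division by length, and leaving out each library. Members and lists were chosen with earlier results of these data known.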

Additional observations from a re-analysis of the deposited data

Results flagged for a closer look

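Reads mapped to several places, which the counts per gene leave out, made up 41.7% of all reads in library 1 and 41.1% in library 2. They are given here because they hold signal outside the counts used; no baseline for this share was examined, so whether it is high was not tested. Mir181a-1, Mir181a-2, Mir181b-1 and Mir181b-2 are the members whose 5p strands would enter that tally. How many of these reads belong to the family was not tested.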

How the results depend on the processing

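Leaving out a library aside, 54 of 69 alternative values over 19 results kept their direction and their side of the threshold or moved by less than 1 SD. With 2 libraries, leaving out either moves a mean by less than 1 SD by construction, so those values say nothing of stability. The family's share of 0.539% became 0.581% in the column that ignores strand, 0.185% of all reads and 0.245% of sense-strand plus multi-mapped reads, through the denominator alone. The family's own multi-mapped reads stayed out of the numerator, so these are shares of its placed reads only. With all reads as the denominator, the levels became 608 (Mir181d), 598 (Mir181b-2), 499 (Mir181c), 138.0 (Mir181a-1), 5.84 (Mir181b-1) and 4.58 (Mir181a-2) per 1000000 reads. Per 100 bases of hairpin, Mir181d moved to 2452, Mir181a-1 to 461 and Mir181b-1 to 21.2 CPM. The count of members that differ fell from 5 to 0 with edgeR's exact test, which adds the spread between samples, and was 4 with DESeq2's size factors. The log2 ratio of Mir181d over Mir181c averaged 0.28 and ran from -0.024 to 0.58 when either library was left out, so its sign rests on library 2. TMM scaling changed no call. Depth limits Mir181b-1 and Mir181a-2, with at most 82 reads in a library. With 1 group, no paired analysis applies.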
